A study of Homo sapiens with 24 samples.

Results

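The difference between the plasma responses of Fadu and Hth83 cells was measured gene by gene, as the log2 fold change of treated over untreated Fadu cells minus the same fold change in Hth83 cells. It rests on 12 of the 24 libraries of the study, 3 for each of 4 groups, and on 20853 genes that passed a filter on low counts. The groups were Fadu-CAP, Fadu-Control, Hth83-CAP and Hth83-Control, all labelled wild type. CAP cells had been exposed for 60 s to Piezo-CAP, a cold atmospheric plasma made by a piezoelectric source, and Control cells for 0 s, and both are labelled 24 h. Fadu cells grew in MEM with 10% fetal bovine serum and Hth83 cells in DMEM with 10% fetal bovine serum and penicillin-streptomycin, so that cell line and medium cannot be told apart. Cells were grown in 6-well plates, RNA was taken with Trizol, and SMARTER libraries were sequenced on a HiSeq3000. No label states whether replicate libraries stem from separate cultures, so p-values measure the spread between these libraries, which may be technical. In bulk RNA, fewer cells of a type and less RNA per cell cannot be told apart.

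Cold atmospheric plasma is a partly ionised gas that brings short-lived and longer-lived oxygen and nitrogen species onto cells and into their medium. Cells answer such oxidants through transcription programmes that are often studied separately, among them the NRF2 antioxidant genes, the ATF4 branch of the integrated stress response, the unfolded protein response of the endoplasmic reticulum, heat shock genes and mitogen-activated kinase signalling through ERK. Sterol synthesis, interferon-stimulated genes and the cell cycle are further programmes that stressed epithelial cancer cells commonly adjust.

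Fadu is a squamous carcinoma line of the hypopharynx and Hth83 a line described as anaplastic thyroid carcinoma, and both are labelled as head and neck cancer cells. CPM are counts scaled to the depth and composition of each library, except for the marker lists, whose levels are scaled to depth alone. The squamous marker list had 20 of 20 genes at or above 1 CPM in both Fadu groups and 18 of 20 in both Hth83 groups. Of the 15 thyroid follicle markers, 3 reached 1 CPM in Hth83 cells and 6 in Fadu cells. In Hth83 cells PAX8 accounted for most of their summed level of 172 to 195 CPM in Hth83-CAP and 131 to 135 CPM in Hth83-Control. In Fadu cells they summed to 59.85 to 61.41 CPM in Fadu-CAP and 56.4 to 65.32 CPM in Fadu-Control. Hth83 cells lacked most thyroid follicle markers and carried squamous ones, so they are called by the name of the line here. Leukocyte, endothelial and fibroblast markers summed to at most 23.0 CPM in any library. Melanocyte markers summed to 71.12 to 74.64 CPM in Fadu-CAP and 98.82 to 101.2 CPM in Fadu-Control, and to at most 8.051 CPM in any Hth83 library. Total counts ran from 29022681 to 37882250 per library, and replicate libraries differed by more than sampling noise, since the chi-square of pairs within a group was 3.02 to 8.73 times its degrees of freedom.

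Plasma changed many genes in both lines, and which genes it changed differed. In edgeR's quasi-likelihood test, at a Benjamini-Hochberg adjusted p under 0.05, 8416 of 20853 genes (40.4%) responded differently in the lines, 4156 (19.9%) with the higher response in Fadu and 4260 (20.4%) with the lower. A called difference of at least 1 on the log2 scale was met by 2430 genes (11.7%), 1354 (6.49%) with the higher response in Fadu and 1076 (5.16%) with the lower. Within Fadu, 4770 genes (22.9%) rose and 4752 (22.8%) fell, and within Hth83, 4677 (22.4%) rose and 4349 (20.9%) fell. Across the 20853 genes the responses of the lines correlated with a Pearson r of 0.081 and a Spearman rho of 0.099, given as a description, since genes are not independent replicates.

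Of the genes that responded differently, 2323 (11.1% of all tested) passed the test in both lines with opposite signs. Of these, 1028 (4.93%) rose in Fadu and fell in Hth83, and 1295 (6.21%) fell in Fadu and rose in Hth83. A further 666 genes moved the same way in both lines with the larger change in Fadu, and 722 with the larger change in Hth83. The test within a line was passed in Fadu and not in Hth83 for 2276 of the genes that differed, in Hth83 and not in Fadu for 2175, and in neither line for 254. With limma on log2(TPM + 1), 652 genes rose in Fadu and fell in Hth83, fewer than in the count test. Genes that fell in Fadu and rose in Hth83 were 97.8% protein-coding, against 87.3% of those that went the other way and 70.8% of all tested genes with an annotated type. Their median relative length was 2.09 times that of all tested genes, against 1.13 times for the genes that rose in Fadu and fell in Hth83. Genes that moved the same way were 97.6% protein-coding and 1.93 times as long where Fadu changed more. Where Hth83 changed more they were 96.2% protein-coding and 1.32 times as long. The median level in Fadu-Control was 68.8 CPM for genes that fell in Fadu and rose in Hth83, against 6.73 CPM for all tested genes. The interaction itself correlated weakly with relative gene length across genes, with a Spearman rho of -0.125, as a description over 20853 genes. With that trend removed, the median difference was 1.27 for the ERK output list, -1.43 for interferon-stimulated genes and -0.71 for mitotic genes, close to the values given for these lists without the correction.

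**Figure D1:**
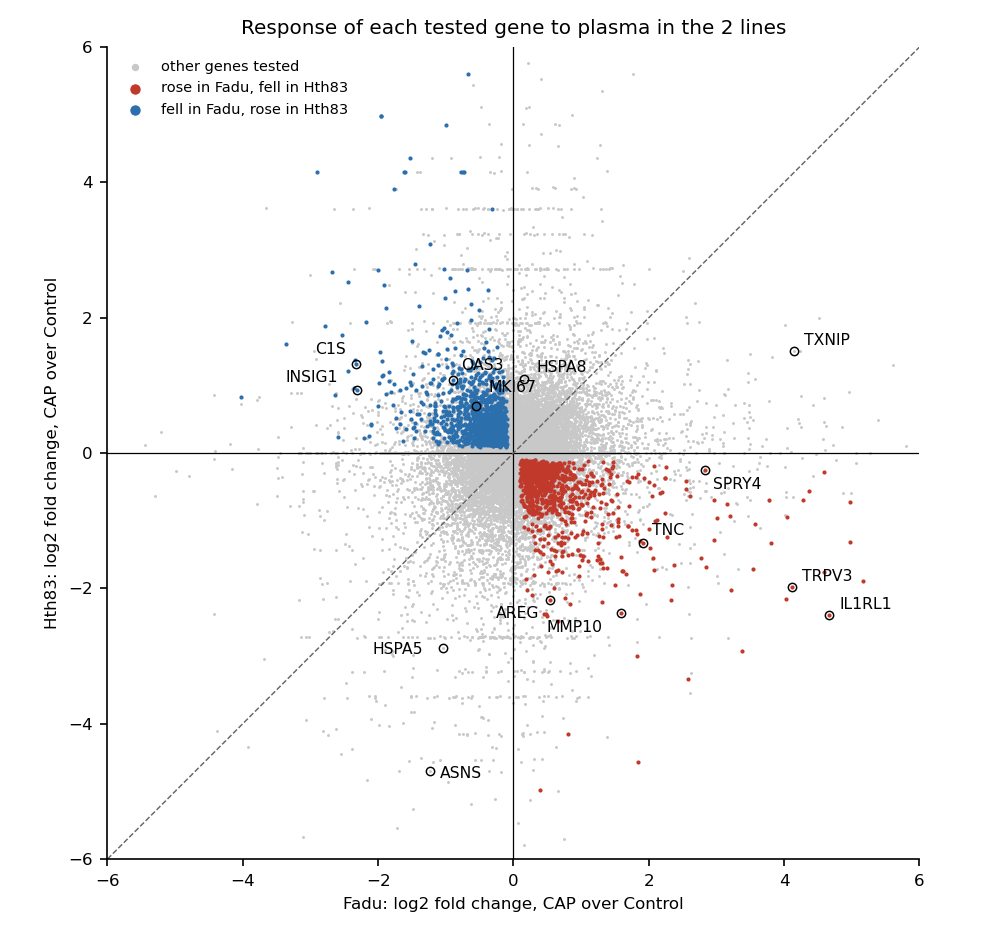
Log2 fold change of CAP over Control in Fadu (x axis) and in Hth83 (y axis) for every tested gene, with 16 genes outside the axis limits of 6. Red points rose in Fadu and fell in Hth83, blue points fell in Fadu and rose in Hth83, and the dashed line marks equal responses. IL1RL1 and TRPV3 lie far to the lower right, INSIG1 and C1S to the upper left, and ASNS and HSPA5 fell in both lines with the larger change in Hth83.

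The promoters of 6 genes from the main patterns are shown first. Each of the 6 holds a match to an element, and the shares over whole groups of genes are given below. Shown are 300 bases from 250 before to 50 after the gene start, from RefSeq GRCh38.p14, 5′ to 3′ on the gene's strand. IL1RL1, MMP10 and IL11 rose in Fadu and fell in Hth83, and the capitals mark a match to TGANTCA, the sequence bound by AP-1 dimers of FOS and JUN proteins. IFIT1 and MKI67 fell in Fadu and rose in Hth83, and the capitals mark the interferon-stimulated response element in IFIT1, which reads in reverse complement there, and TTTGAA, the cell cycle homology region, in MKI67. ASNS fell in both lines, and the capitals mark TGATGNAA, the element bound by ATF4 with C/EBP proteins. Both strands were searched, and the IL1RL1 promoter also holds 1 TTTGAA. The IL1RL1 window lies inside the gene as GENCODE release 29 places it (chr2:102311502-102352037), so the start used is not its outermost start. Coordinates are chr2:102337007-102337306 on the plus strand for IL1RL1, chr11:102780579-102780878 on the minus strand for MMP10, chr19:55370414-55370713 on the minus strand for IL11, chr10:89392373-89392672 on the plus strand for IFIT1, chr10:128126374-128126673 on the minus strand for MKI67 and chr7:97872359-97872658 on the minus strand for ASNS.
IL1RL1: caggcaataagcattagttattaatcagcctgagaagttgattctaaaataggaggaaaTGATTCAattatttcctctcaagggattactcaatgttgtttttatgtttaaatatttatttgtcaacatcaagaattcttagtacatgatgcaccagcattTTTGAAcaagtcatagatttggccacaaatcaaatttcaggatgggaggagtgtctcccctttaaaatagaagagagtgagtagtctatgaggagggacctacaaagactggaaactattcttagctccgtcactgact
MMP10: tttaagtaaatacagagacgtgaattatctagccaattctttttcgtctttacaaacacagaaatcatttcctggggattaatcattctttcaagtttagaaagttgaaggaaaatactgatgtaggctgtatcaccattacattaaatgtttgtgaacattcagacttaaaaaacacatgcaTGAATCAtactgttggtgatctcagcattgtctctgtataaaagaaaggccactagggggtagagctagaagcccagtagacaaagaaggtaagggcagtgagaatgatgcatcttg
IL11: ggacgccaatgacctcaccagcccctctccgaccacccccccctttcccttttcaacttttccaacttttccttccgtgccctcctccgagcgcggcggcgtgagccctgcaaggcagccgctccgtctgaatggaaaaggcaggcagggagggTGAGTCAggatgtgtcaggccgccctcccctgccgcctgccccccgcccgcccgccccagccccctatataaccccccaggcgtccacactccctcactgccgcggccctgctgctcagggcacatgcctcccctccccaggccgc
IFIT1: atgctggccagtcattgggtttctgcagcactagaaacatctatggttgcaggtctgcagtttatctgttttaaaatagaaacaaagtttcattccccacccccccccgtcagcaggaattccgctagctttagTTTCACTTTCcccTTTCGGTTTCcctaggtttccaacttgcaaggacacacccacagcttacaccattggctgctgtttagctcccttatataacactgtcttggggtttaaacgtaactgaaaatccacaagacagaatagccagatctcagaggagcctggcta
MKI67: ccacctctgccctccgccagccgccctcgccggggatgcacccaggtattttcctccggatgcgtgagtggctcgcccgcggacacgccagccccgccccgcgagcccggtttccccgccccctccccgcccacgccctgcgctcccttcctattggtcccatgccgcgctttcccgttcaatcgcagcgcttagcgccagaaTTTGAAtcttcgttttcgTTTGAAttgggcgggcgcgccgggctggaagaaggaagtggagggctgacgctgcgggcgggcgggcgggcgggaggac
ASNS: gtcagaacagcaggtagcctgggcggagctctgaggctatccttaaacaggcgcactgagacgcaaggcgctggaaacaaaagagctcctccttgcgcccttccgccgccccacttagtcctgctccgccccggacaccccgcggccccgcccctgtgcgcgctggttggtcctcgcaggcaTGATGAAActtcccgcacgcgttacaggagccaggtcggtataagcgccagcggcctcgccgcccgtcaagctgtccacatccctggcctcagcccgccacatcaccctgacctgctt

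Matches to TGANTCA were found in 7.76% of all 27305 promoters, in 5.1% of the 12881 of tested genes, in 6.12% of 752 promoters of genes that rose in Fadu and fell in Hth83, and in 3.24% of 1048 promoters of genes that did the opposite. The interferon element was in 3.65% of all promoters and in 23 of 37 promoters of interferon-stimulated genes. The cell cycle element was in 15.4% of all promoters and in 28 of 41 of the mitosis list. The ATF4 element was in 3.67% of all promoters and in 6 of 26 of the ATF4 list. A match in this window is a description of the letters there and not a site shown to be used.

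Genes that rose in Fadu and fell in Hth83 were led by IL1RL1, the receptor for interleukin 33. IL1RL1 had 97.9, 109 and 102 CPM in Fadu-CAP against 3.54, 4.91 and 3.62 CPM in Fadu-Control, and 0.658, 0.812 and 0.489 CPM in Hth83-CAP against 3.79, 3.21 and 3.23 CPM in Hth83-Control. The treated libraries were the highest of the Fadu libraries and the lowest of the Hth83 libraries, with no overlap in either line. The response in Fadu exceeded that in Hth83 by 7.06 ± 0.21 (adjusted p of 4.89e-26), where ± gives the SE on the log2 scale and the adjusted p is from edgeR, here and for the other differences between responses. TRPV3, a heat-gated cation channel of keratinocytes, had 15.7, 17.9 and 16.7 CPM in Fadu-CAP against 1.13, 0.75 and 1.04 CPM in Fadu-Control, and 0.897, 1.08 and 0.611 CPM in Hth83-CAP against 3.02, 3.42 and 3.78 CPM in Hth83-Control. Its response differed by 6.09 ± 0.28 (adjusted p of 2.64e-20), again with no overlap between treated and untreated libraries in either line. Across settings of the processing the difference ran from 4.73 to 7.23 for IL1RL1 and from 2.86 to 6.27 for TRPV3. Over all tested genes, treated and untreated libraries did not overlap for 55% in Fadu and 49.3% in Hth83.

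Secreted proteases and matrix proteins were among these genes. MMP10, the stromelysin that also activates other metalloproteinases, had 61, 58.9 and 54.7 CPM in Fadu-CAP against 19, 18.8 and 20.1 CPM in Fadu-Control, and 0.628, 1.32 and 0.733 CPM in Hth83-CAP against 4.54, 3.77 and 5.46 CPM in Hth83-Control. Every Fadu library lay above every Hth83 library, and the gap between the lines was wider after plasma. TNC, the matrix glycoprotein tenascin C, had 23.8, 22.6 and 22.7 CPM in Fadu-CAP against 6.67, 6.18 and 5.35 CPM in Fadu-Control, and 39.1, 39.5 and 38 CPM in Hth83-CAP against 86.9, 88.1 and 119 CPM in Hth83-Control, and here the untreated Hth83 libraries were the highest of the 12. The difference between responses was 3.96 ± 0.20 (adjusted p of 2.15e-18) for MMP10 and 3.25 ± 0.14 (adjusted p of 3.74e-15) for TNC. MMP3 rose in Fadu, to a mean of 17 ± 1.15 CPM in Fadu-CAP, against 1.47 ± 0.367 CPM in Fadu-Control (SD, n = 3), but lay under 1 CPM in every Hth83 library. Of the 14 metalloproteinases measured, 5 had the higher response in Fadu and 3 the lower, against 19.9% and 20.4% of all genes tested. Of 35 matrix and epithelial-mesenchymal genes, 19 had the higher response in Fadu and 9 the lower, with 10 that rose in Fadu and fell in Hth83.

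TRIML2, a member of the tripartite motif-like family, and PLCXD2, a protein with a phospholipase C domain, were further genes with clear opposite responses. TRIML2 had 5.19, 4.19 and 6.53 CPM in Fadu-CAP against 1.83, 1.86 and 1.89 CPM in Fadu-Control, and 21.8, 24.9 and 21 CPM in Hth83-CAP against 83.6, 86.4 and 91.2 CPM in Hth83-Control. PLCXD2 had 15.3, 17.1 and 17.9 CPM in Fadu-CAP against 6.55, 6.62 and 7.24 CPM in Fadu-Control, and 6.01, 6.26 and 7.27 CPM in Hth83-CAP against 19.3, 19.2 and 21.8 CPM in Hth83-Control. Treated and untreated libraries of either line did not overlap for either gene, with a difference between responses of 3.45 ± 0.16 (adjusted p of 3.21e-19) for TRIML2 and 2.93 ± 0.15 (adjusted p of 1.55e-18) for PLCXD2. IL13RA2, a decoy receptor for interleukin 13, met the same rule but lay under 0.5 CPM in every Fadu library, so that its change in Fadu is a change near 0. The genes with the largest fitted differences also included several that were near 0 in a line, among them PIWIL1, CALB2, PROM2, AP1M2, VANGL2, SERPINB9, HTRA3 and CDH6, for which the size of the difference is not interpretable.

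The ERK output list, transcripts that ERK signalling induces, some of which in turn restrain it, leaned upward in Fadu and downward in Hth83. Of its 24 members, 17 had the higher response in Fadu and 2 the lower, and the median difference was 1.29, against 0.025 for all genes tested. In Fadu 21 members rose and 2 fell, with a median log2 fold change of 1.06, and in Hth83 7 rose and 14 fell, with a median of -0.26. For 12 members the directions were opposite, each with a rise in Fadu. Of all genes tested, 19.9% had the higher response in Fadu and 20.4% the lower. In Fadu 22.9% of them rose and 22.8% fell, and in Hth83 22.4% rose and 20.9% fell. These shares are the background for the counts of every list. The list was assembled with earlier results of these data known, and members of this list and the others share regulators, so their counts are descriptions.

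DUSP6, the phosphatase that inactivates ERK in the cytoplasm, had 39.9, 42.2 and 40.9 CPM in Fadu-CAP against 14.2, 10.6 and 11.6 CPM in Fadu-Control, and 189, 199 and 173 CPM in Hth83-CAP against 229, 242 and 244 CPM in Hth83-Control. FOSL1, the AP-1 subunit that ERK stabilises, had 218, 233 and 244 CPM in Fadu-CAP against 54.2, 54.3 and 56.7 CPM in Fadu-Control, and 336, 368 and 343 CPM in Hth83-CAP against 421, 377 and 396 CPM in Hth83-Control. SPRY4, a Sprouty inhibitor of receptor tyrosine kinase signalling, had 10, 9.79 and 11.9 CPM in Fadu-CAP against 2.06, 1.45 and 0.912 CPM in Fadu-Control, and 111, 114 and 107 CPM in Hth83-CAP against 130, 131 and 135 CPM in Hth83-Control. In all 3 genes the treated Fadu libraries lay above the untreated ones and the treated Hth83 libraries below theirs, and every Hth83 library lay above every Fadu library. The difference between responses was 2.10 ± 0.09 (adjusted p of 9.08e-19) for DUSP6, 2.26 ± 0.07 (adjusted p of 6.99e-26) for FOSL1 and 3.08 ± 0.15 (adjusted p of 1.16e-17) for SPRY4. PHLDA1 and IER3 behaved likewise, with fold changes of 1.39 and 1.09 in Fadu and of -0.25 and -0.33 in Hth83 on the log2 scale. ETV4 and SPRY2 rose in Fadu and did not pass in Hth83, while CCND1, the G1 cyclin, and ETV1 rose in both lines with the larger change in Hth83.

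The median absolute difference in level between the lines over this list was 1.15 log2 units in CAP libraries and 2.60 in Control libraries, and the lines lay closer in CAP for 19 of 24 members. Over all tested genes the median was 0.83 in CAP and 0.88 in Control, and 53.5% of genes lay closer in CAP.

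AREG, HBEGF, EREG and NRG1, ligands of the EGF receptor family, rose in Fadu and fell in Hth83, while the list of ligands and receptors as a whole was mixed. AREG, amphiregulin, had 151, 159 and 151 CPM in Fadu-CAP against 106, 108 and 103 CPM in Fadu-Control, and 207, 236 and 233 CPM in Hth83-CAP against 1042, 951 and 1041 CPM in Hth83-Control. HBEGF, a membrane-anchored ligand that proteases release, had 36.7, 35.1 and 39.5 CPM in Fadu-CAP against 22.5, 26.7 and 24.3 CPM in Fadu-Control, and 342, 385 and 365 CPM in Hth83-CAP against 1472, 1323 and 1534 CPM in Hth83-Control. In Fadu the treated libraries were the higher ones and in Hth83 the lower ones, by a wide margin in Hth83. The responses differed by 2.70 ± 0.06 (adjusted p of 2.2e-28) for AREG and 2.58 ± 0.09 (adjusted p of 1.02e-15) for HBEGF. EREG and NRG1 were opposite as well, with fold changes of 0.29 and 0.71 in Fadu and of -0.83 and -0.59 in Hth83 on the log2 scale, and TGFA rose in Fadu without passing in Hth83. EGFR itself fell in both lines, with no difference called in the main test, though 2 other settings of the processing called it, DESeq2 among them. Of the 14 ligands and receptors, 6 had the higher response in Fadu and 3 the lower. In Fadu 5 rose and 6 fell, with a median of -0.38, and in Hth83 3 rose and 6 fell, with a median of -0.42.

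Several secreted factors that were higher in Hth83 than in Fadu rose in Fadu. INHBA, the subunit of activin A, had 20, 21.4 and 22.2 CPM in Fadu-CAP against 0.87, 0.646 and 1.16 CPM in Fadu-Control, and 1616, 1883 and 1647 CPM in Hth83-CAP against 2026, 2109 and 2087 CPM in Hth83-Control. FST, the activin antagonist follistatin, had 229, 233 and 238 CPM in Fadu-CAP against 49.9, 48.1 and 48.1 CPM in Fadu-Control, and 908, 1025 and 965 CPM in Hth83-CAP against 1160, 1103 and 1068 CPM in Hth83-Control. Both rose in Fadu, and both fell in Hth83, with log2 fold changes there of -0.27 for INHBA and -0.20 for FST. The responses differed by 4.87 ± 0.13 (adjusted p of 9.75e-20) for INHBA and 2.46 ± 0.06 (adjusted p of 9.66e-29) for FST. IL11 and IL24, cytokines of the interleukin 6 and interleukin 10 families, were also opposite, with IL11 at 5.13, 5.73 and 6.24 CPM in Fadu-CAP against 0.522, 0.827 and 0.755 CPM in Fadu-Control, and 53.9, 51.6 and 46.1 CPM in Hth83-CAP against 96.4, 93.5 and 106 CPM in Hth83-Control. IL11 was under 1 CPM in every untreated Fadu library. SERPINB2, a plasminogen activator inhibitor, rose to a mean of 9.14 ± 1.11 CPM in Fadu-CAP, against 0.159 ± 0.0728 CPM in Fadu-Control (SD, n = 3), and had a log2 fold change of 0.11 in Hth83 that did not pass. The wider list of 26 TGF-beta, activin and BMP genes was mixed, with 6 higher and 12 lower in Fadu. SMAD6 and ID1, targets of BMP signalling, fell in Fadu and rose in Hth83.

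**Figure D2:**
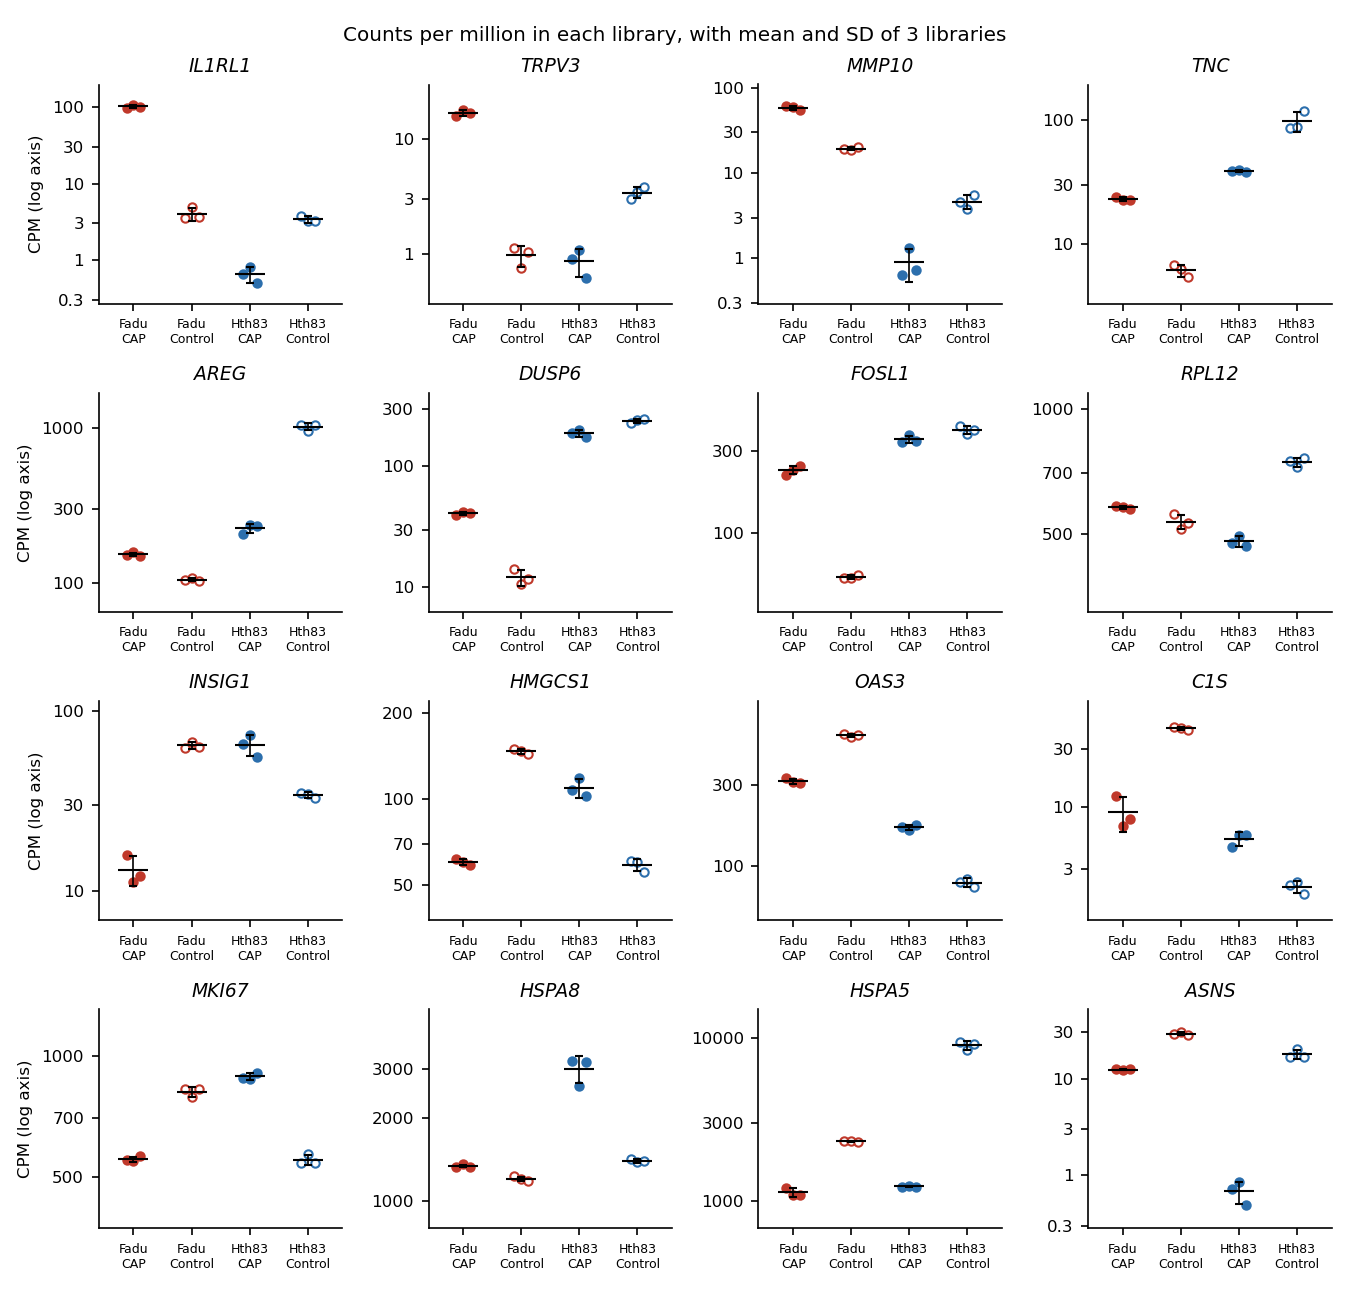
CPM on a log axis in each of the 12 libraries for 16 genes, with filled points for CAP, open points for Control and bars for the mean and SD of 3 libraries. The first 8 genes are higher in Fadu-CAP than in Fadu-Control and lower in Hth83-CAP than in Hth83-Control. INSIG1, HMGCS1, OAS3, C1S and MKI67 show the reverse, HSPA8 is higher in CAP in both lines and most so in Hth83, and HSPA5 and ASNS fall in both lines.

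Cytosolic ribosomal protein genes moved in opposite directions by small amounts. Of 50 genes, 48 had the higher response in Fadu, none the lower, and RPL15 and RPL22 did not pass. In Fadu 40 rose and 2 fell, with a median of 0.18, and in Hth83 none rose and 42 fell, with a median of -0.22 on the log2 scale. RPL12 had the widest difference, with 583, 581 and 573 CPM in Fadu-CAP against 557, 515 and 532 CPM in Fadu-Control, and 476, 495 and 466 CPM in Hth83-CAP against 750, 724 and 762 CPM in Hth83-Control. The treated and untreated libraries of RPL12 did not overlap in either line, though in Fadu they were close. Ribosomal protein genes have many processed pseudogenes, so counts at single genes may be shared with copies. The ribosome biogenesis list, whose genes assemble ribosomes, had 9 higher, 10 lower and 16 not passed of 35, and in each line most members rose, 27 in Fadu and 25 in Hth83.

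Genes that fell in Fadu and rose in Hth83 included the interferon-stimulated genes, an antiviral programme. Of 46 measured members, 34 had the lower response in Fadu and 1, ISG20, the higher, with a median difference of -1.42, which was -1.44 when the 5 members with no count in a group were set at the limit of 3 counts per group. In Fadu 43 members fell and 1 rose, with a median of -0.96, and in Hth83 23 rose and 5 fell, with a median of 0.33. The directions were opposite for 23 members, 22 of them with a fall in Fadu.

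OAS3, which senses double-stranded RNA, had 326, 310 and 305 CPM in Fadu-CAP against 596, 570 and 586 CPM in Fadu-Control, and 170, 163 and 173 CPM in Hth83-CAP against 80.1, 84.1 and 74.7 CPM in Hth83-Control. EIF2AK2, the kinase PKR, had 130, 124 and 119 CPM in Fadu-CAP against 214, 212 and 212 CPM in Fadu-Control, and 201, 211 and 216 CPM in Hth83-CAP against 140, 149 and 150 CPM in Hth83-Control. In both genes the treated libraries were the lower ones in Fadu and the higher ones in Hth83, with no overlap. The responses differed by -1.97 ± 0.06 (adjusted p of 9.66e-26) for OAS3 and -1.29 ± 0.06 (adjusted p of 5.81e-20) for EIF2AK2. IFIT1, which binds foreign RNA and whose promoter is shown above, had 72.7, 68.5 and 62 CPM in Fadu-CAP against 138, 133 and 133 CPM in Fadu-Control, and 4.73, 3.89 and 4.09 CPM in Hth83-CAP against 1.12, 1.8 and 2.02 CPM in Hth83-Control, so that its rise in Hth83 took place at under 5 CPM. Both Hth83 groups averaged under 5 CPM for 23 of the 46 members. CMPK2, an interferon-induced nucleotide kinase, rose in Hth83 on a total of 4 counts in the untreated libraries, and CXCL10, a chemokine, stayed under 2 CPM in every library. ISG15, a ubiquitin-like modifier, had a log2 fold change of -0.08 in Fadu and rose by 0.65 in Hth83. The level of the list differed between the lines by a median of 2.35 log2 units in CAP and 4.31 in Control, with 42 of 46 members closer in CAP.

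Genes of MHC class I peptide presentation followed the same direction in part. Of 18 members, 13 had the lower response in Fadu and 4 the higher, HLA-B and HLA-E among them. TAPBP, the tapasin that loads peptides, had 67.6, 57.2 and 54.8 CPM in Fadu-CAP against 140, 132 and 125 CPM in Fadu-Control, and 102, 98.1 and 92.5 CPM in Hth83-CAP against 67.5, 67.7 and 63.9 CPM in Hth83-Control. B2M, the light chain of the class I molecule, had 896, 898 and 849 CPM in Fadu-CAP against 1081, 1071 and 1071 CPM in Fadu-Control, and 454, 446 and 447 CPM in Hth83-CAP against 364, 369 and 365 CPM in Hth83-Control. Both fell in Fadu and rose in Hth83, and the responses differed by -1.70 ± 0.08 (adjusted p of 3.7e-18) for TAPBP and -0.58 ± 0.05 (adjusted p of 4.7e-13) for B2M. HLA-B went the other way, with 408, 381 and 414 CPM in Fadu-CAP against 327, 339 and 330 CPM in Fadu-Control, and 16.8, 19.6 and 18 CPM in Hth83-CAP against 27, 25 and 27.4 CPM in Hth83-Control. Reads of the class I heavy chain genes can be split between near-identical copies, so their counts are uncertain. The call of HLA-E was lost in 5 other settings of the processing, among them without Fadu-Control replicate 3 and without Hth83-CAP replicate 1.

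Sterol and fatty acid synthesis genes, which SREBP factors induce, mostly fell in Fadu, and more of them rose than fell in Hth83. Of 32 members, 27 had the lower response in Fadu and none the higher, with a median difference of -1.12. In Fadu 26 fell and 2 rose, with a median of -0.77, and in Hth83 18 rose and 4 fell, with a median of 0.34. INSIG1, the sterol-sensing brake on SREBP activation and itself an SREBP target, had 15.8, 11.2 and 12 CPM in Fadu-CAP against 62.8, 67.7 and 63.3 CPM in Fadu-Control, and 65.7, 73.6 and 55.8 CPM in Hth83-CAP against 35.1, 34.5 and 32.7 CPM in Hth83-Control. HMGCS1, the synthase ahead of HMG-CoA reductase, had 61.8, 60.3 and 58.9 CPM in Fadu-CAP against 150, 148 and 144 CPM in Fadu-Control, and 107, 119 and 103 CPM in Hth83-CAP against 60.6, 60.3 and 55.6 CPM in Hth83-Control. Treated libraries were the lower in Fadu and the higher in Hth83 for both genes. Their responses differed by -3.25 ± 0.14 (adjusted p of 1.09e-13) for INSIG1 and -2.18 ± 0.07 (adjusted p of 2.72e-24) for HMGCS1. FASN, fatty acid synthase, was opposite too, and the desaturase SCD fell in Fadu by 2.67 on the log2 scale without passing in Hth83. The medium of the lines differed, and its part in these values was not tested.

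Mitotic genes split by line. Of 50 members, 43 had the lower response in Fadu and 1, PTTG1, the higher. The call of PTTG1 was lost in 4 other settings of the processing, among them without Fadu-Control replicate 1. Of the 50, 30 fell in Fadu and rose in Hth83. In Fadu 35 fell and 4 rose, with a median of -0.33, and in Hth83 41 rose and none fell, with a median of 0.50. MKI67, the proliferation antigen Ki-67, had 550, 547 and 563 CPM in Fadu-CAP against 827, 789 and 826 CPM in Fadu-Control, and 883, 877 and 910 CPM in Hth83-CAP against 541, 569 and 543 CPM in Hth83-Control. CENPF, a kinetochore protein, had 244, 242 and 227 CPM in Fadu-CAP against 490, 486 and 491 CPM in Fadu-Control, and 299, 296 and 326 CPM in Hth83-CAP against 189, 203 and 205 CPM in Hth83-Control. The treated Fadu libraries were the lower and the treated Hth83 libraries the higher, with no overlap. The responses differed by -1.25 ± 0.05 (adjusted p of 3.24e-22) for MKI67 and -1.66 ± 0.06 (adjusted p of 1.06e-23) for CENPF. CCNB1, cyclin B1, rose in Hth83 by 0.76 and had a log2 fold change of -0.01 in Fadu. Late mitotic UBE2C and AURKB rose in both lines with no difference called, though that of UBE2C passed in 3 other settings of the processing.

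DNA replication genes rose in Hth83 and moved less in Fadu. Of 42 members, 32 had the lower response in Fadu and 1, CDC6, the higher. In Fadu 21 rose and 6 fell, with a median of 0.14, and in Hth83 41 rose and 1 fell, with a median of 0.87. UHRF1, which copies DNA methylation at forks, had 174, 182 and 188 CPM in Fadu-CAP against 154, 150 and 152 CPM in Fadu-Control, and 185, 163 and 196 CPM in Hth83-CAP against 49.8, 50.5 and 46.2 CPM in Hth83-Control. PCNA, the sliding clamp, had 171, 174 and 163 CPM in Fadu-CAP against 186, 187 and 189 CPM in Fadu-Control, and 162, 161 and 171 CPM in Hth83-CAP against 80.9, 76 and 70.3 CPM in Hth83-Control. UHRF1 rose in both lines and by far more in Hth83, while PCNA fell slightly in Fadu. CDKN1A, the p21 inhibitor of cyclin-dependent kinases, had 81.1, 82.7 and 84.8 CPM in Fadu-CAP against 40, 38.5 and 39.2 CPM in Fadu-Control, and 135, 122 and 118 CPM in Hth83-CAP against 235, 212 and 259 CPM in Hth83-Control, with a difference of 1.99 ± 0.08 (adjusted p of 2.26e-20). The wider p53 list was mixed, with 8 of 28 higher and 10 lower in Fadu, against 19.9% and 20.4% of all genes tested. MDM2 fell by 0.34 in Fadu.

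Other genes with a fall in Fadu and a rise in Hth83 lay outside these lists. C1S, the serine protease of the first complement component, had 12.3, 6.93 and 7.86 CPM in Fadu-CAP against 46, 45.1 and 43.6 CPM in Fadu-Control, and 4.64, 5.82 and 5.8 CPM in Hth83-CAP against 2.24, 2.36 and 1.87 CPM in Hth83-Control. DTX4, an E3 ligase of the Deltex family in the Notch pathway, had 7.97, 6.88 and 7.69 CPM in Fadu-CAP against 19.3, 18.4 and 18.2 CPM in Fadu-Control, and 42.6, 40 and 37.3 CPM in Hth83-CAP against 13.4, 15.9 and 13.6 CPM in Hth83-Control. CSF1, the macrophage growth factor, had 15.4, 14.1 and 13.6 CPM in Fadu-CAP against 33.7, 30.2 and 29.7 CPM in Fadu-Control, and 25, 20.5 and 24.7 CPM in Hth83-CAP against 9.65, 9.37 and 9.5 CPM in Hth83-Control. All 3 genes had treated libraries below untreated ones in Fadu and above them in Hth83, and their responses differed by -3.64 ± 0.23 (adjusted p of 2.26e-12) for C1S, -2.80 ± 0.13 (adjusted p of 3.95e-20) for DTX4 and -2.42 ± 0.13 (adjusted p of 2.73e-18) for CSF1. ACACB, the mitochondrial acetyl-CoA carboxylase, and JPH2, junctophilin 2, met the same rule at lower levels. CCN2 and IKZF2 fell in Fadu but lay under 1 CPM in every Hth83 library.

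Heat shock genes mostly rose in Hth83, with smaller changes in Fadu. Of 25 members, 20 had the lower response in Fadu and 2, HSPA9 and HSF1, the higher. The call of HSF1 was lost in 4 other settings of the processing, among them without Fadu-CAP replicate 1, with a log2 difference of 0.17. In Fadu 12 rose and 5 fell, with a median of 0.11, and in Hth83 19 rose and 2 fell, with a median of 0.74. HSPA8, the constitutive HSP70, had 1332, 1357 and 1333 CPM in Fadu-CAP against 1228, 1202 and 1179 CPM in Fadu-Control, and 3191, 2608 and 3182 CPM in Hth83-CAP against 1423, 1379 and 1393 CPM in Hth83-Control. HSP90AA1, the inducible HSP90, had 2542, 2570 and 2464 CPM in Fadu-CAP against 2597, 2576 and 2575 CPM in Fadu-Control, and 4414, 4186 and 4626 CPM in Hth83-CAP against 2201, 2098 and 1929 CPM in Hth83-Control. The log2 fold changes were 0.16 in Fadu and 1.10 in Hth83 for HSPA8, and -0.03 and 1.09 for HSP90AA1 in the same order, and the first of these for HSP90AA1 did not pass. HSPA1A, an inducible HSP70 whose reads may be shared with HSPA1B, rose by 0.66 in Fadu and 2.71 in Hth83. DNAJB1, their J-domain partner, was opposite, with a fall of 0.74 in Fadu and a rise of 0.87 in Hth83.

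Endoplasmic reticulum chaperones fell in both lines and fell further in Hth83. Of 24 members, 22 had the higher response in Fadu and none the lower. In Fadu 21 fell and 1 rose, with a median of -0.52, and in Hth83 all 24 fell, with a median of -1.48. HSPA5, the chaperone BiP, had 1206, 1092 and 1089 CPM in Fadu-CAP against 2335, 2322 and 2297 CPM in Fadu-Control, and 1225, 1233 and 1223 CPM in Hth83-CAP against 9457, 8372 and 9189 CPM in Hth83-Control. After plasma both lines stood near the same level, and the wide gap lay between the untreated groups. The response differed by 1.84 ± 0.05 (adjusted p of 1.99e-24). MANF, a folding factor released under stress, fell by 0.20 in Fadu and 1.78 in Hth83. CANX and ATF6 fell in both lines with no difference called.

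The ATF4 list, amino acid synthesis and stress genes induced when eIF2 alpha is phosphorylated, also fell in both lines and further in Hth83. Of 32 members, 25 had the higher response in Fadu and 3, ALDH1L2, PSPH and SLC7A5, the lower. In Fadu 29 fell and 1 rose, with a median of -0.76, and in Hth83 30 fell and 2 rose, with a median of -1.53. ASNS, asparagine synthetase, had 12.5, 12.2 and 12.4 CPM in Fadu-CAP against 28.8, 30.2 and 28.4 CPM in Fadu-Control, and 0.718, 0.846 and 0.489 CPM in Hth83-CAP against 16.7, 20.1 and 16.6 CPM in Hth83-Control. DDIT3, the factor CHOP, had 15.4, 11.4 and 14 CPM in Fadu-CAP against 42.2, 41.6 and 42.4 CPM in Fadu-Control, and 6.01, 5.75 and 7.12 CPM in Hth83-CAP against 105, 90.5 and 106 CPM in Hth83-Control. Treated libraries were the lower in both lines, and the treated Hth83 libraries were the lowest of the 12. Between the lines the responses differed by 3.47 ± 0.19 (adjusted p of 8.17e-18) for ASNS and 2.36 ± 0.13 (adjusted p of 2.97e-17) for DDIT3. PPP1R15A, the phosphatase subunit GADD34 that ends the response, was opposite, with 77.1, 73.3 and 85.5 CPM in Fadu-CAP against 57.8, 56.8 and 55.1 CPM in Fadu-Control, and 67.7, 70.8 and 79.4 CPM in Hth83-CAP against 379, 336 and 419 CPM in Hth83-Control. ATF4 itself fell by 0.61 in Fadu and 0.98 in Hth83. Aminoacyl-tRNA synthetases, many of them ATF4 targets, had 17 of 20 members higher in Fadu and none lower, with medians of -0.02 in Fadu and -0.67 in Hth83. The Fadu median of this list was 0.08 when scaled by library size alone.

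NRF2 targets, the antioxidant genes, fell in Fadu and were mixed in Hth83. Of 28 members, 18 had the lower response in Fadu and 1, SLC7A11, the higher. In Fadu 23 fell and 1 rose, with a median of -0.79, and in Hth83 9 rose and 11 fell, with a median of 0.05. NQO1, a quinone reductase, had 339, 334 and 334 CPM in Fadu-CAP against 504, 499 and 512 CPM in Fadu-Control, and 220, 225 and 249 CPM in Hth83-CAP against 156, 135 and 160 CPM in Hth83-Control. FTH1, the ferritin heavy chain, had 1168, 1051 and 1079 CPM in Fadu-CAP against 2315, 2253 and 2257 CPM in Fadu-Control, and 385, 386 and 380 CPM in Hth83-CAP against 362, 345 and 386 CPM in Hth83-Control. NQO1 was opposite, and FTH1 fell in Fadu without passing in Hth83. SLC7A11, the cystine transporter that ATF4 also induces, fell in both lines, by 1.49 in Fadu and 1.89 in Hth83. TXNRD1 fell in both lines with a difference of -0.12 that did not pass (adjusted p of 0.0561). It did pass in 10 other settings of the processing, DESeq2 and log2(TPM + 1) among them.

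**Figure D3:**
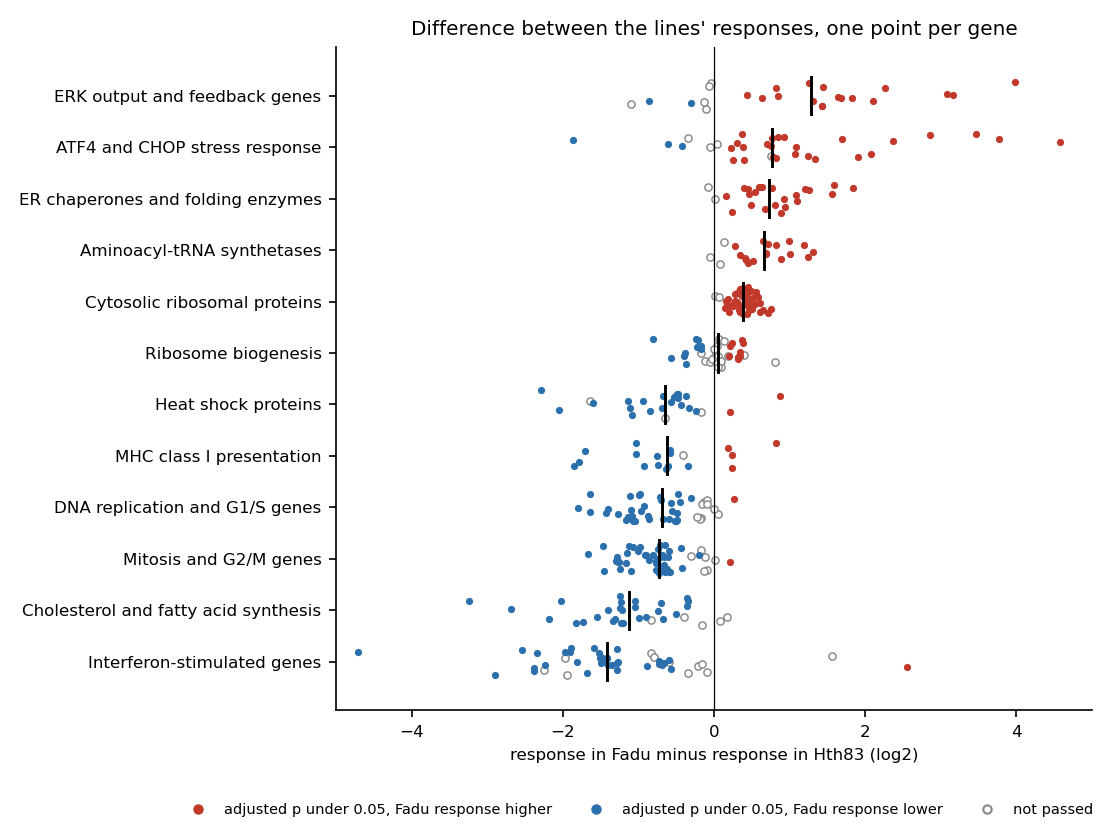
Difference between the responses of Fadu and Hth83 on the log2 scale for each member of 12 gene lists, with the median of each list as a bar and 2 members outside the axis limit of 5. Members of the ERK, ATF4, chaperone, synthetase and ribosomal protein lists lie mainly to the right, ribosome biogenesis straddles 0, and the other lists lie mainly to the left.

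Squamous identity genes mostly fell in both lines, and the difference between the lines had no common direction. Of the 20 markers, 8 had the higher response in Fadu and 8 the lower. In Fadu 13 fell and 6 rose, with a median of -0.70, and in Hth83 13 fell and 6 rose, with a median of -0.28. KRT5, the basal keratin, had 1331, 1160 and 1114 CPM in Fadu-CAP against 3931, 3800 and 3730 CPM in Fadu-Control, and 203, 218 and 221 CPM in Hth83-CAP against 137, 144 and 143 CPM in Hth83-Control. SOX2, a squamous and stem cell factor, was opposite as well, with a difference of -2.88 ± 0.22 (adjusted p of 9.72e-14). TP63, the master factor of stratified epithelium, fell in both lines, by 0.69 in Fadu and 0.22 in Hth83. LAMB3 and COL17A1, hemidesmosome parts, rose in Fadu and fell in Hth83. Scaled to depth alone, the summed level of the 20 markers was 8390 to 8903 CPM in Fadu-CAP, against 13230 to 13550 CPM in Fadu-Control. In Hth83 it was 6150 to 6617 CPM in Hth83-CAP, against 8602 to 8956 CPM in Hth83-Control. The part of this shift in the other lists was not tested.

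**Figure D4:**
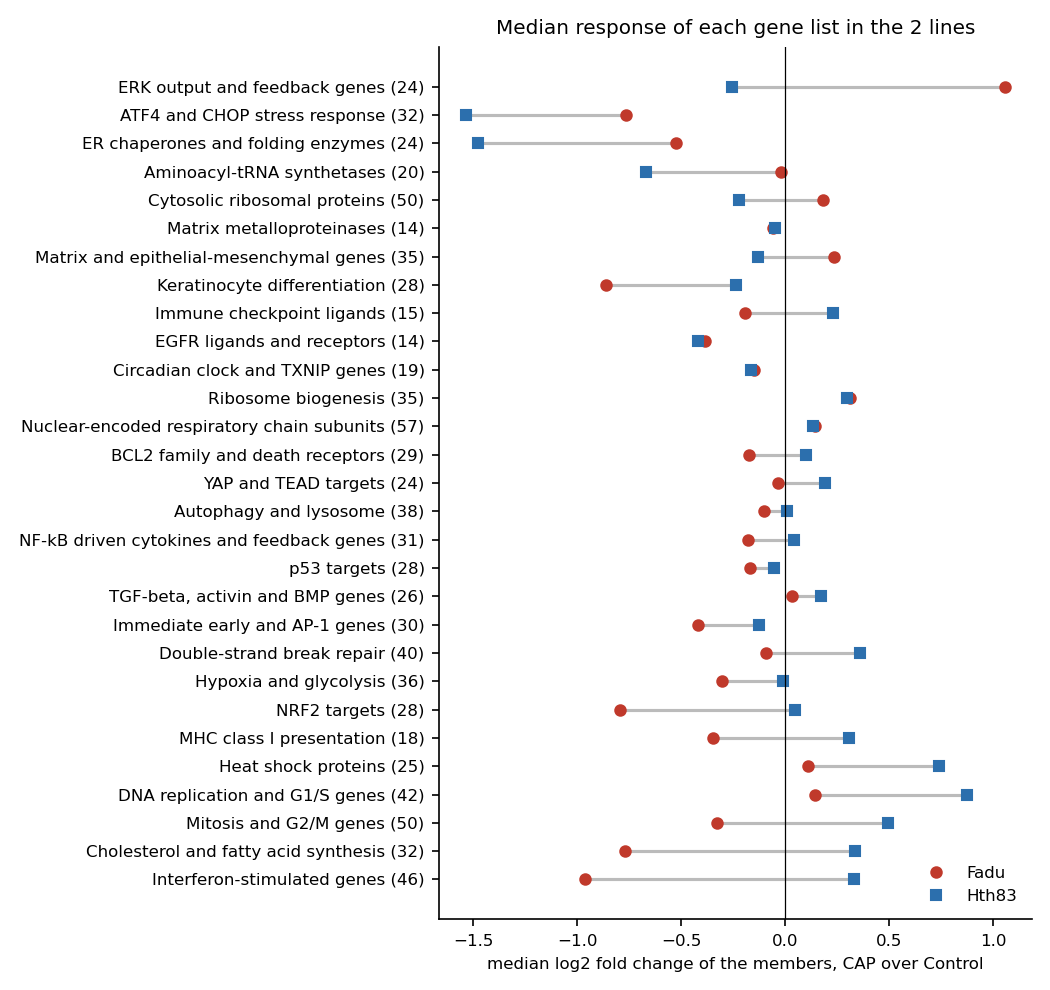
Median log2 fold change of CAP over Control in Fadu (circles) and Hth83 (squares) for the pathway lists with at least 10 measured members, whose number is in brackets, ordered by the median difference. ERK output stands at 1.06 in Fadu and -0.26 in Hth83, interferon-stimulated genes at -0.96 in Fadu and 0.33 in Hth83, and the ribosome biogenesis and respiratory chain lists have nearly equal medians.

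The remaining lines of the study, Cal27 from a tongue squamous carcinoma and A375 from a melanoma, took no part in choosing the opposite genes and were fitted with Fadu and Hth83 in a model of all 24 libraries. Of the 1295 genes that fell in Fadu and rose in Hth83, 40.8% rose and 20.5% fell in Cal27, and 44.6% rose and 16.6% fell in A375, against 16.3% and 16.5% of 23642 genes in Cal27 and 18% and 19.1% in A375. Of the 1028 genes that rose in Fadu and fell in Hth83, 14.8% rose and 43.4% fell in Cal27, and 19.6% rose and 34.8% fell in A375. In both lines the more common direction among these genes was that of Hth83. The opposite genes also lay at higher levels, with Fadu-Control medians of 68.8 CPM for those that fell in Fadu and 27.2 CPM for those that rose. The median over all tested genes was 6.73 CPM, and genes at low counts are harder to call. The part of level in these shares was not tested. OAS3 had a log2 fold change of -0.49 in Cal27 and 0.31 in A375, INSIG1 of 0.43 and -0.32 in the same order, MKI67 of 0.62 and 0.25, and IL1RL1 of -0.16 and 1.98.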

How the data were processed

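The study deposited a table of counts and a table of TPM for each of 4 cell lines, with 61533 Ensembl genes and 6 libraries in each. The deposited counts are whole numbers per gene that the authors did not normalise, as the values show, and the authors' TPM values are scaled for transcript length and depth. The submitters' processing notes name HISAT2 and GRCh38. For the counter, the annotation and strand use, the sources used here give nothing. Gene names came from a symbol table that matched 61415 IDs, and relative gene length from the ratio of deposited counts to deposited TPM.

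The 12 Fadu and Hth83 libraries were fitted in edgeR 4.0.16 (R 4.3.3) with a mean per group, TMM scaling, genes kept by filterByExpr (minimum count 10, minimum total 15) and robust quasi-likelihood dispersions. The difference of responses was a contrast of the 4 means, and p-values were adjusted over all 20853 genes. The model was tested on simulated data. A gene was called at an adjusted p under 0.05, and opposite when it was called in the difference and in each line with unlike signs. CPM are TMM-scaled. Alternatives used limma 3.58.1 on log2(TPM + 1) and DESeq2 1.42.0.

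Named genes were the 8 most positive and 8 most negative differences with at least 10 CPM in a group and no overlap in a line, the 8 strongest opposite genes in each direction, the 2 called members of each pathway list with the smallest p, and a fixed panel. A rule added after seeing the data named the 12 most positive and 12 most negative with at least 5 CPM in the higher condition of each line. Members of the lists outside these rules that are named were chosen after their values were seen. The members and the 36 gene lists were chosen with earlier results of these data known. Mitochondrial genes had no counts in any library. Promoters are from RefSeq GRCh38.p14. Some genes are not reported here.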

Additional observations from a re-analysis of the deposited data

Results flagged for a closer look

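The responses of the lines differed, by a test of the difference itself, for 8416 genes, of which 1028 rose in Fadu and fell in Hth83 and 1295 fell in Fadu and rose in Hth83. The strongest opposite genes were picked out by the same test. Those with the higher response in Fadu differed on the log2 scale by 7.06 for IL1RL1, 6.09 for TRPV3, 5.25 for MMP3, 5.12 for IL13RA2, 3.96 for MMP10, 3.45 for TRIML2, 3.25 for TNC and 2.93 for PLCXD2. Those with the lower response in Fadu differed by -4.71 for CMPK2, -4.03 for IKZF2, -3.64 for C1S, -3.30 for CCN2, -2.80 for DTX4, -2.76 for JPH2, -2.44 for ACACB and -2.42 for CSF1. The fitted values of IL13RA2, CMPK2 and IKZF2 rest on a total of 2 counts in untreated Fadu, 4 counts in untreated Hth83 and 9 counts in untreated Hth83, in that order. MMP3 and CCN2 lay under 1 CPM in every Hth83 library. The fitted values of IL13RA2, CMPK2, IKZF2, MMP3 and CCN2 do not measure the size of the difference. Other sizes moved with the processing without a change of sign. They ran from -2.92 to -1.15 for JPH2, -2.52 to -0.96 for ACACB, 2.86 to 6.27 for TRPV3 and 1.35 to 3.01 for PLCXD2. For IL1RL1 they ran from 4.73 to 7.23, and for C1S from -3.92 to -2.27. Outside these genes, INHBA ran from 2.955 to 5.079 and ASNS from 1.92 to 3.63.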

How the results depend on the processing

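The count of genes whose response differed was 7108 to 8453 under other scalings, filters, tools and TPM, and 7890 to 8407 without 1 library, against 8416. With a minimum of 2-fold it was 2430, with 1354 higher and 1076 lower in Fadu, 1833 genes were called in Fadu and 1653 in Hth83, and 118 were opposite, 65 of them with a rise in Fadu and 53 with a fall. Genes that rose in Fadu and fell in Hth83 numbered 652 on log2(TPM + 1), 651 on log2(TPM + 0.1) and 570 on log2(TPM + 1) without a filter, against 1028, and the cause was not tested. AP1M2, near 0 in a line, had a difference of 0.027 on log2(TPM + 1) with and without the filter, against a called negative value. Without 1 library, lost calls included SERPINB9, VANGL2, HTRA3, CDH6, PROM2 and CXCL10, which are near 0 in a line, and HLA-E, HSF1, PTTG1 and FOS. With the replicate block, 8376 genes were called. In Fadu, deviations of same-numbered libraries correlated at 0.024 to 0.052, above those of differently numbered libraries, at -0.057 to 0.0082. In Hth83 the values were 0.0018 to 0.0099 and -0.064 to 0.064 in the same order. The main test did not pair samples by number, and these values do not settle whether the numbers pair them in Fadu. The share of called genes with the higher response in Fadu was 43.4% to 54.8%, against 49.4%. On log2(TPM + 1) the median difference changed sign for the checkpoint (0.15 in the count test), keratinocyte (0.15), metalloproteinase (0.33), respiratory chain (0.0046), ribosome biogenesis (0.048), squamous (0.011), melanocyte (0.41) and leukocyte (0.41) lists. Depth limits genes at low counts in a line, such as IL13RA2, CMPK2, IKZF2, MMP3 and CCN2, whose fitted differences do not measure size.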

Other observations

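TXNIP, an inhibitor of thioredoxin that glucose induces, and its paralog ARRDC4 rose in both lines and far more in Fadu. TXNIP had 256, 283 and 277 CPM in Fadu-CAP against 16.3, 14.6 and 15.3 CPM in Fadu-Control, and 10.9, 8.73 and 11.9 CPM in Hth83-CAP against 4.25, 3.62 and 3.15 CPM in Hth83-Control. The responses differed by 2.64 for TXNIP and 2.95 for ARRDC4 on the log2 scale. NT5E, the ectoenzyme CD73 that makes adenosine, rose by 3.46 in Fadu and 0.23 in Hth83. CD274, the checkpoint ligand PD-L1, rose by 1.09 in Fadu and 0.39 in Hth83. Of the 15 checkpoint ligands measured, 3 had the higher response in Fadu and 6 the lower, against 19.9% and 20.4% of all genes tested.

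Of 36 hypoxia and glycolysis genes, 9 had the higher response in Fadu and 21 the lower. VEGFA, the vascular growth factor, fell by 1.35 in Hth83 and had a log2 fold change of -0.12 in Fadu that did not pass. ADM, adrenomedullin, fell by 1.23 in Fadu and rose by 0.43 in Hth83. Of 31 NF-kB genes, 11 had the higher response in Fadu and 12 the lower. NFKBIA, the inhibitor of NF-kB, fell in Fadu and rose by 0.57 in Hth83, while TNFAIP3, another feedback inhibitor, rose in both lines with a difference of 0.06 that did not pass. Values for genes outside the naming rules were chosen after they were seen.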
